A study of Homo sapiens with 6 samples.

Results

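The MYC and MAX network is a set of 9 genes for basic helix-loop-helix leucine zipper proteins and their close relatives: MYC, MAX, MXD1, MXD3, MXD4, MXI1, MNT, MGA and MLX. The 9 genes were listed by name and not ranked by a measured value, but with earlier results of these data known. All 9 are among the 19498 genes of the deposited table and among the 16658 that were tested. RNA was measured in K562, an established human leukaemia line driven by the fusion kinase BCR::ABL1. The libraries form 2 groups of 3 biological replicates, one with the genotype WT and one with the genotype ACK KO, where ACK is the Cdc42-binding tyrosine kinase encoded by TNK2. No other treatment, allele or time point is named, and both groups were grown in the same serum-containing medium. The names of all 6 libraries also carry the word Stat5, with no meaning given. The labels give neither the edit nor the number of clones, so genotype and line or clone cannot be told apart, and a p-value here speaks only for the spread of these 6 libraries.

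MAX is the shared partner of the network. MYC and MAX together bind the E-box CACGTG and activate genes for growth, ribosome production and nucleotide synthesis. The MXD proteins (MXD1, MXD3, MXD4 and MXI1) and MNT compete for MAX at the same sites and recruit the SIN3 and histone deacetylase corepressor. MGA joins MAX within a Polycomb repressor complex, and MLX is a MAX-like protein that pairs with the nutrient sensors MLXIP (MondoA) and MLXIPL (ChREBP). In myeloid and erythroid cells MYC is known to fall, and some MXD genes to rise, as cells stop dividing and mature.

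Of the 9 genes, MYC has no promoter in the RefSeq table used here (GRCh38.p14) and was not searched. The other 8 have 13 promoters in all, from 250 bases before to 50 after each start site. The E-box CACGTG, which reads the same on both strands, was found in 3 of them. They are shown because they are the sites in the network's own promoters with the letters that its proteins bind. Each is written on the gene's strand with the E-box in capitals.
MXD4, minus strand, chr4:2262330-2262359, E-box starting 238 bases before the start site: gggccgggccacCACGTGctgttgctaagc
MNT, minus strand, chr17:2401236-2401265, E-box starting 193 bases before the start site: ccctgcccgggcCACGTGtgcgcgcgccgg
MLX, plus strand, chr17:42567038-42567067, E-box starting 50 bases before the start site: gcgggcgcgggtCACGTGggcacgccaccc
By comparison, 2548 of 35116 promoters of the same length hold the E-box (7.26%). The letters TTCNNNGAA, to which STAT factors bind and which also read the same on both strands, were in none of the 13 network promoters and in 7.66% of all promoters. A match is a description of the letters and not evidence of binding, and no binding data were used.

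TNK2, the gene labelled as knocked out, averaged 695 ± 118 normalised read counts in WT libraries and 615 ± 119 in those labelled ACK KO (SD, n = 3 per group), so its mRNA does not check the labels, and KO below means only the libraries carrying that label. Library sums ran from 43.5 to 53.3 M normalised counts. The read depth behind them is unknown. All 14 erythroid and K562 markers were tested and summed to 58121 to 113078 in WT and 74078 to 114923 in KO libraries. Of the 14, 2 rose (14.3%, against 5.37% of all genes) and none fell, where 4.96% of all genes did. Their median log2 difference was 0.11, with 5 of the 14 below 0. With the replicate number as a block 3 were higher and 1 lower, where 19.7% and 20.0% of all genes were. HBE1, the embryonic globin gene, rose 9.19-fold from 1315 ± 256 to 12385 ± 4308 (SD, n = 3 per group; adjusted p 7.84e-04, limma). ALAS2, the erythroid enzyme that starts haem synthesis, rose 2.84-fold from 758 ± 218 to 2144 ± 555 (SD, n = 3 per group; adjusted p 0.0209, limma). GATA1, an erythroid master regulator, was between 8842 and 9877 in WT and between 6863 and 7030 in KO libraries, with a log2 difference of -0.40 and adjusted p-values of 0.0637 and, with the block, 0.00256 (limma). The part of these markers in the results below was not tested. Lymphoid markers summed to 509 to 1806 in WT and 1002 to 1778 in KO libraries. Epithelial and fibroblast markers, nearly all of it EPCAM, summed to 4383 to 5186 and 4693 to 5288, and of the 2 tested COL1A1, a collagen gene, rose 9.18-fold from 16.3 ± 14.3 to 133 ± 65.7 (SD, n = 3 per group; adjusted p 0.0334, limma).

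None of the 9 network genes passed the test between genotypes, either higher, where 5.37% of all genes passed, or lower, where 4.96% did. On the log2(value + 1) scale their differences (KO-labelled minus WT) ran from -0.54 for MXD3 to 0.17 for MXD4, with a median of -0.17 against -0.02 over all genes tested, and 7 of 9 were below 0 against 51.6% of all genes tested. No member reached an adjusted p of 0.05 (limma, Benjamini-Hochberg over 16658 genes), where 10.3% of all genes did, and none had an unadjusted p under 0.05, where 23.8% of all genes did. The WT and KO-labelled libraries overlapped for every member, while 30.0% of all genes had no overlap. With the replicate number as a block, which 39.7% of all genes passed, 1 member did, MYC. In bulk RNA, fewer cells with a transcript and less of it per cell cannot be told apart.

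**Figure D1:**
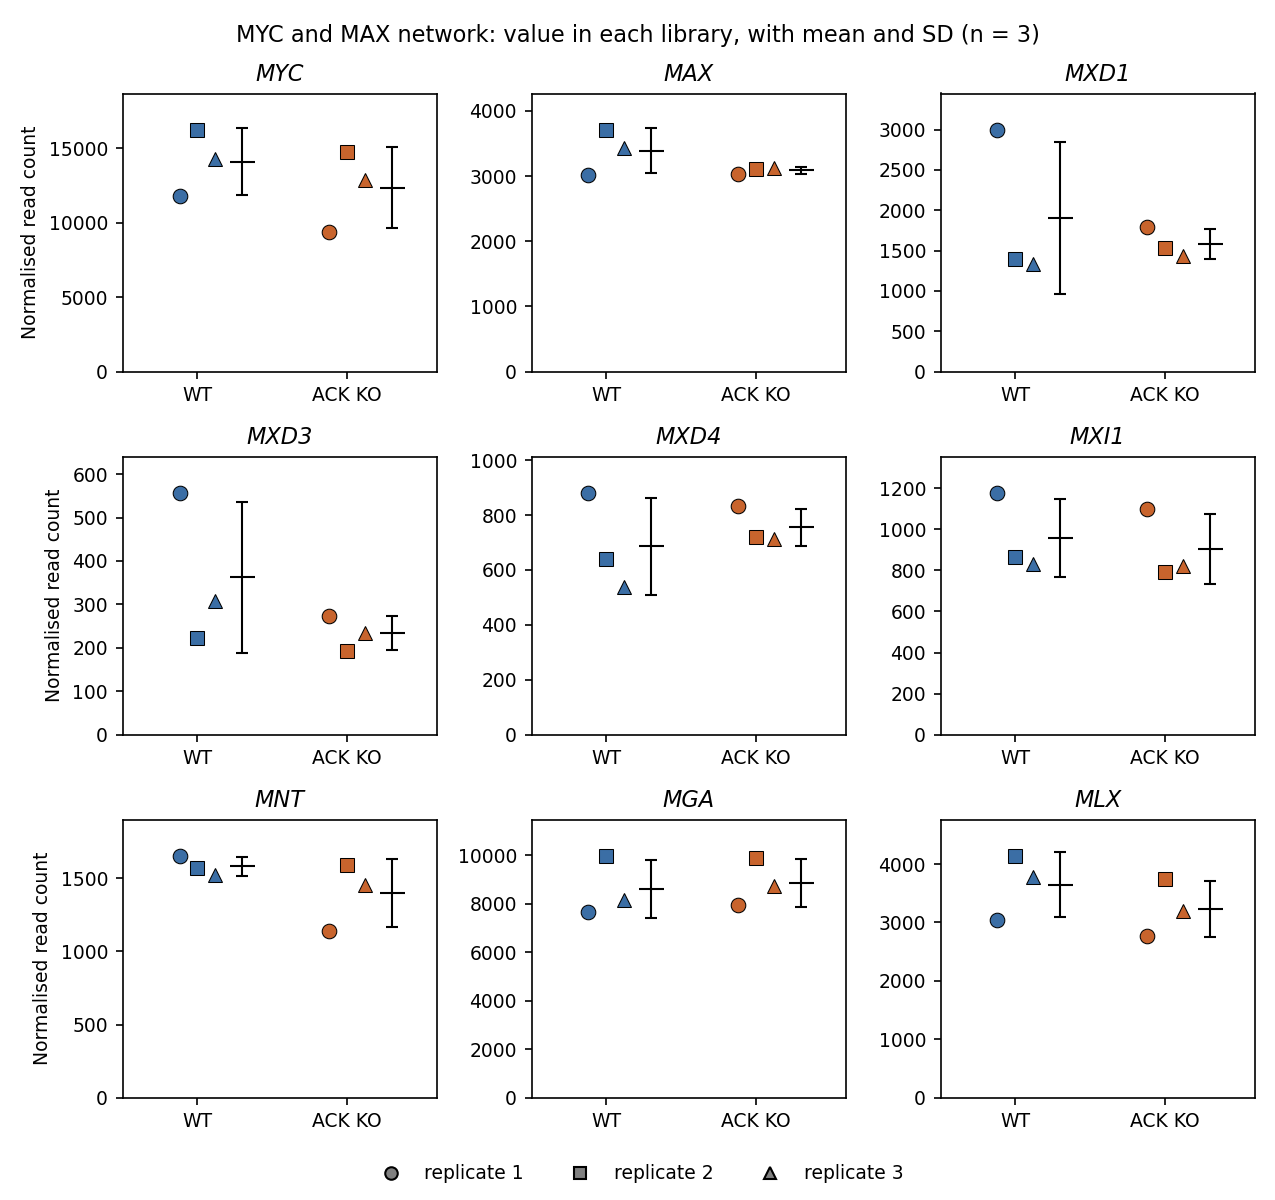
Normalised read count (vertical axis, linear from 0) of each network gene in the 3 WT libraries (blue) and the 3 libraries labelled ACK KO (orange), with marker shape for the replicate number and a bar for the mean ± SD. The genotypes overlap in all 9 panels, and replicate 1 is the lowest library for MYC and the highest for MXD1 in both genotypes.

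MYC, the activating subunit, maps to chromosome 8 (plus strand, 127735434 to 127741434) (ENSG00000136997.19, GRCh38, GENCODE 29). In order of replicate number, its normalised counts were 11786, 16249 and 14302 for WT and 9399, 14748 and 12885 for KO, the order used for every gene below. The KO-labelled library was the lower of each pair with the same number, yet the groups overlapped widely, since replicate 1 was low in both. The means were 14112 ± 2237 and 12344 ± 2715 (SD, n = 3 per group), a log2 difference of -0.21 (SE 0.21) with a 95% interval from -0.70 to 0.29 and an adjusted p of 0.624 (limma). With the replicate block the SE was 0.06 and the adjusted p 0.0378 (limma). That call was lost with the block when libraries were also scaled to equal sums (log2 difference -0.11, adjusted p 0.225) and when the pair numbered 2 or 3 was left out (adjusted p 0.1097 and 0.132). Leaving out KO-labelled replicate 1 moved the unblocked difference from -0.21 to -0.02. The 6 other tested genes that start within 2 Mb of MYC had a median log2 difference of -0.48.

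One of those neighbours is PVT1, the long non-coding RNA gene next to MYC, named here after its values were seen. Its counts were 2782, 2326 and 2192 for WT and 2285, 1430 and 1314 for KO. Its log2 difference was -0.57 with an adjusted p of 0.195, and of 0.00519 with the block (limma).

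MAX, the common partner, maps to chromosome 14 (minus strand, 65006174 to 65102695). Its counts were 3022, 3711 and 3435 for WT and 3032, 3109 and 3127 for KO. The 3 KO-labelled libraries lay close together, and only the WT libraries 2 and 3 stood above them. The log2 difference was -0.13 (SE 0.12, 95% interval -0.42 to 0.17, adjusted p 0.604, limma). This interval is the narrowest of the 9 and leaves MAX between 0.75 and 1.12 times its WT level.

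MLX, the partner of the Mondo proteins, maps to chromosome 17 (plus strand, 42567068 to 42573239). Its counts were 3034, 4142 and 3775 for WT and 2775, 3737 and 3189 for KO. As for MYC, each KO-labelled library was below the WT library of its number and replicate 1 was the lowest of both groups. The log2 difference was -0.17 (SE 0.17, 95% interval -0.59 to 0.24, adjusted p 0.622, and 0.0767 with the block, limma). MLX shares 770 exonic bases with PSMC3IP on the opposite strand.

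MGA, the large scaffold that joins MAX to Polycomb proteins, maps to chromosome 15 (plus strand, 41621224 to 41773081). Its counts were 7675, 9983 and 8170 for WT and 7966, 9904 and 8726 for KO. The groups covered nearly the same range, and no pair with the same number differed by more than 0.10 in log2. The log2 difference was 0.05 (SE 0.15, 95% interval -0.31 to 0.40, adjusted p 0.8997, limma), with values from -0.04 to 0.16 when 1 library was left out.

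MNT, the repressor that is present in both resting and dividing cells, maps to chromosome 17 (minus strand, 2384060 to 2401118). Its counts were 1654, 1567 and 1524 for WT and 1141, 1593 and 1457 for KO. Only KO-labelled replicate 1 was clearly low, and without it the log2 difference moved from -0.19 to -0.05. The 95% interval ran from -0.58 to 0.19 with an adjusted p of 0.548 (limma).

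The 4 MXD genes encode the antagonists that take MAX away from MYC. MXD1 (chromosome 2, 69897688 to 69942945, plus strand) had counts of 2997, 1394 and 1328 for WT and 1794, 1527 and 1434 for KO. WT replicate 1 alone was far above its group, so the sign of the difference rests on it: -0.17 (SE 0.32, adjusted p 0.817, limma) with all libraries and 0.21 without WT replicate 1. MXD1 shares 237 exonic bases with SNRNP27 on the same strand.

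MXD3 (chromosome 5, 177301461 to 177312757, minus strand) was the least abundant member and had the largest difference. Its counts were 557, 222 and 309 for WT and 272, 193 and 235 for KO. The KO-labelled library was lower in each pair, and WT replicate 1 stood apart again. The log2 difference was -0.54 (SE 0.36, 95% interval -1.39 to 0.31, adjusted p 0.434, and 0.0591 with the block, limma), and -0.18 without WT replicate 1. The other 692 tested genes of chromosome 5 had a median log2 difference of -0.62, and the 55 tested within 2 Mb of MXD3 one of -0.71, both below the value of MXD3. Its exons overlap those of RAB24 on the same strand over 926 bases and those of PRELID1, at a mean of 6432, on the opposite strand over 1158 bases. The sources used here do not say how reads in shared bases were assigned, so the values of MXD3 are uncertain, as are those of the other members with shared bases. Besides MXD1 and MLX, these are MNT with 1065 bases, MGA with 510, MXI1 with 205 and MAX with 184, all shared with a non-coding gene on the opposite strand, and MXD4, whose exons hold 80 bases of a microRNA gene on the same strand.

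MXD4 (chromosome 4, 2247432 to 2262294, minus strand) had counts of 881, 638 and 539 for WT and 833, 721 and 713 for KO, a log2 difference of 0.17 (SE 0.21, adjusted p 0.716, limma). It was higher in the KO-labelled library in numbers 2 and 3 and lower in number 1, and the difference was 0.01 without WT replicate 3 and 0.36 without WT replicate 1. MXI1 (chromosome 10, 110207605 to 110287365, plus strand) had counts of 1178, 867 and 829 for WT and 1099.95, 791 and 822 for KO. Its difference of -0.08 (SE 0.21, adjusted p 0.865, limma) became 0.02 when libraries were scaled to equal sums.

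**Figure D2:**
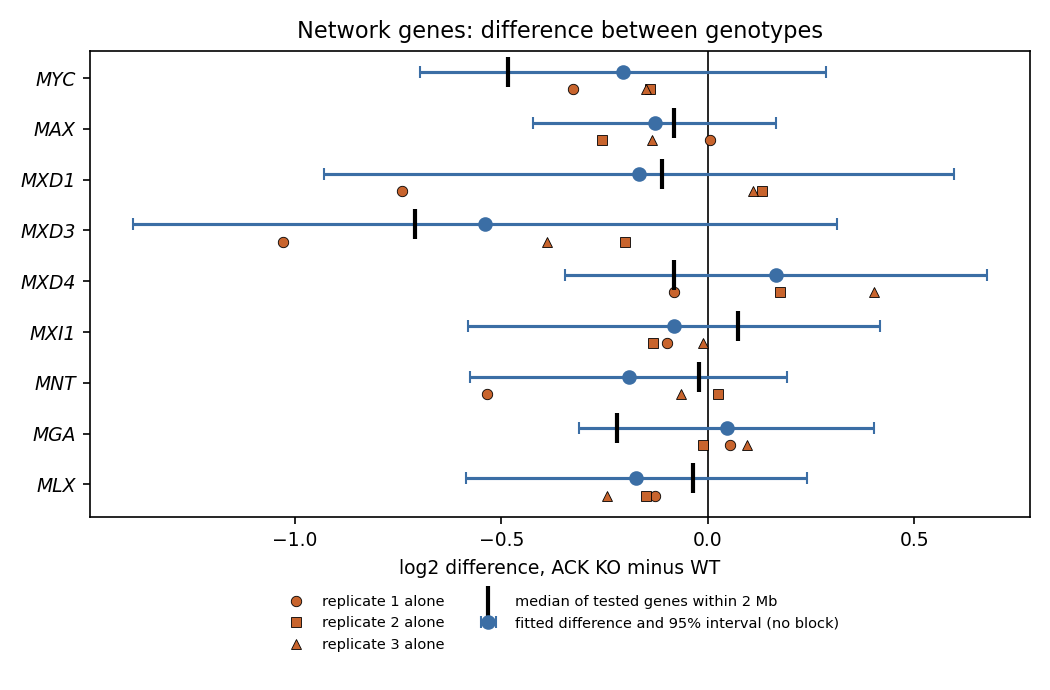
Log2 difference (KO-labelled minus WT, horizontal axis) of each network gene with its 95% interval from the fit without a block (blue), the difference within each replicate number (orange) and the median of other tested genes within 2 Mb (black bar). All 9 intervals include 0, and the bar of MXD3 lies at -0.71, below its own value.

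Across pairs, the KO-labelled library was lower in all 3 replicate numbers for 4 members, MYC, MXD3, MXI1 and MLX, where 34.0% of all genes were. It was higher in all 3 for no member, where 31.8% of all genes were. The 4 were therefore 1 activator, 1 MAX-like partner and 2 antagonists. With libraries scaled to equal sums, 6 of the 9 differences were below 0 in place of 7. Of all 16658 genes, 6970 were then below 0 in place of 8601, and their median moved from -0.02 to 0.08. Before scaling, the library sum was lower in the KO-labelled library of each number (43.5, 49.5 and 47.3 M against 46.7, 53.3 and 50.3 M). The counts over pairs above are without this scaling.

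Levels were compared between genes per kilobase of merged exon. MYC was by far the most abundant network mRNA, at 4702 ± 746 normalised counts per kb in WT and 4113 ± 905 in KO libraries (SD, n = 3 per group). MLX followed at 857 ± 133 and 759 ± 113, MAX at 765 ± 78.3 and 697 ± 11.3, and MGA at 488 ± 68.8 and 502 ± 55.3. The antagonists were lower, with MXD1 at 300.2 ± 149 and 249.6 ± 29.4, MXI1 at 208 ± 41.5 and 196 ± 36.9, MNT at 181 ± 7.61 and 160.1 ± 26.6, MXD4 at 97.2 ± 24.9 and 107 ± 9.49, and MXD3 at 70.4 ± 33.7 and 45.3 ± 7.68. The order was the same in both genotypes. The libraries of MLX and MAX, of MXD1 and MXI1, and of MXI1 and MNT overlapped in both groups, so these neighbours were not separated beyond their spread, and those of MGA and MXD1 and of MXD4 and MXD3 overlapped in WT alone. The merged length counts every annotated exon of GENCODE 29, so genes with many alternative exons, such as MGA with 17.7 kb, read low on this scale.

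In order of replicate number, MYC made up 56.9%, 63.6% and 62.8% of the network's mRNA per kb for WT and 54.5%, 63.1% and 61.7% for KO. The ratio of MYC to the sum of the 4 MXD genes, both per kb, was 4.09, 10.002 and 9.07 for WT and 4.53, 8.91 and 7.79 for KO. The ratio separated replicate 1 from replicates 2 and 3 in each genotype and did not separate the genotypes, whose means were 7.72 ± 3.18 and 7.08 ± 2.28 (SD, n = 3 per group). The ratio of MYC to MAX was 6.12 ± 0.354 and 5.89 ± 1.23.

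**Figure D3:**
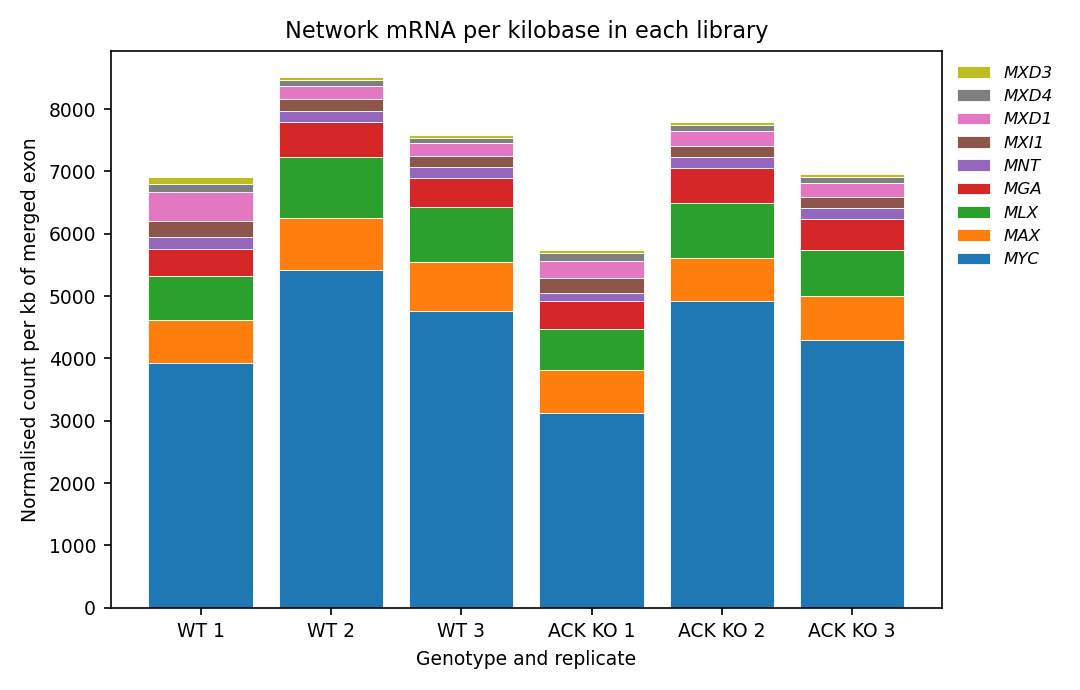
Normalised counts per kb of merged exon (vertical axis) summed over the 9 network genes in each library, with the share of each gene in colour. MYC is the largest share in every library, from 54.5% to 63.6%, and both replicate 1 bars are shorter than the other bars of their genotype.

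Within the network, libraries also differed by replicate number. Replicate 1 had the smallest library sum of its genotype, at 46.7 M in WT and 43.5 M in KO libraries. MYC, MAX, MLX and MGA had their lowest value in replicate 1 of both genotypes, and MXD1, MXD3, MXD4 and MXI1 had their highest there, while MNT did neither. Among all genes tested, 33.3% were lowest and 34.4% highest in replicate 1 of both genotypes, so counts of 4 of 9 each way (44.4%) are near the share of all genes. MYC in replicate 1 was 0.37 below the mean log2 of replicates 2 and 3 in WT and 0.55 below it in KO libraries. MXD1 was above it by 1.14 in WT and 0.28 in KO libraries, MXD3 by 1.09 and 0.35, MXD4 by 0.59 and 0.22, and MXI1 by 0.47 and 0.45. The steps of MXD1, MXD3 and MXD4 were larger in WT, and MNT was at 0.10 in WT and -0.42 in KO libraries. The difference of steps was not tested, and the labels do not say what the replicate number stands for.

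Known target genes of MYC were read in the same way. Of 44 textbook MYC-activated genes, 38 had their lowest value in replicate 1 of both genotypes (86.4%, against 33.3% of all genes). Their highest value was there for 2 (4.55%, against 34.4%). The median step of the 44 was -0.96 in WT and -0.82 in KO libraries, against 0.03 and 0.02 for all genes tested. ODC1, which encodes the first enzyme of polyamine synthesis, had counts of 7759, 35678 and 25207 for WT and 9905, 30013 and 23496 for KO. SRM, the spermidine synthase gene, had 1878, 9511 and 6907 and then 2368, 8398 and 5874. Both are named with their values already known, and neither differed by genotype beyond the spread, with log2 differences of 0.00 and -0.03 and adjusted p-values of 0.9997 and 0.988 (limma).

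**Figure D4:**
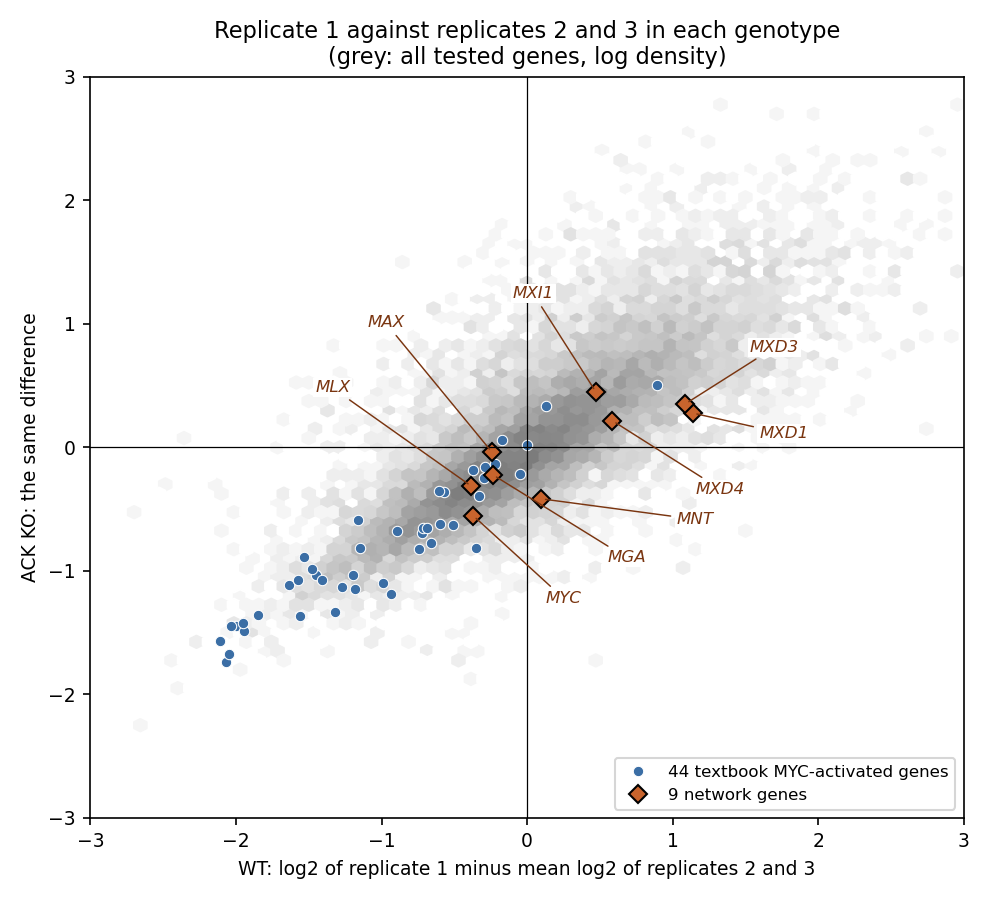
Log2 of replicate 1 minus the mean log2 of replicates 2 and 3 in WT (horizontal) and in KO libraries (vertical), for all tested genes within the axes (grey, log density), 44 textbook MYC-activated genes (blue) and the 9 network genes (orange). The 4 MXD genes lie in the upper right and MYC, MAX, MLX and MGA in the lower left. Of the 44 MYC-activated genes, 38 have their lowest value in replicate 1 of both genotypes (86.4%, against 33.3% of all genes).

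The extended network held MYCL, MLXIP and MLXIPL among the genes tested, and none of the 3 passed. MLXIP, the MondoA gene, was the most abundant and even, with 13586, 10946 and 10473 for WT and 12101, 10833 and 11067 for KO (log2 difference -0.03, adjusted p 0.919, limma). MLXIPL, the ChREBP gene, had 1530, 216 and 250.1 for WT and 1742, 328 and 478 for KO. Replicate 1 was again far above the rest in both genotypes, and MLXIPL was higher in the KO-labelled library of each number. Its log2 difference was 0.57 (SE 0.90, adjusted p 0.77, and 0.0254 with the block, limma). The blocked call was lost without number 2 (adjusted p 0.0514, limma) or number 3 (0.125). Without the block, leaving out both replicate 1 libraries gave 0.76 (adjusted p 0.0401, limma). MLXIPL lies on chromosome 7, whose other 833 tested genes had a median of 0.39. MYCL, a MYC paralogue, had 564, 154 and 169.5 for WT and 569, 122 and 111 for KO (log2 difference -0.31, adjusted p 0.859, limma).

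Of 14 MYC coactivators and partners 1 rose, none fell and 13 did not pass, and with the block 2 rose and 2 fell (14.3% each), where 19.7% of all genes rose and 20.0% fell. The share of 7.14% that rose without the block compares with 5.37% of all genes. Their median log2 difference was 0.04. TRRAP, the scaffold of histone acetyltransferase complexes that MYC recruits, rose 1.47-fold from 9699 ± 1079 to 14234 ± 498 (SD, n = 3 per group; adjusted p 0.0376, limma). Its counts were 8468, 10480 and 10149 for WT and 13664, 14584 and 14455 for KO, with no overlap. TRRAP lies on chromosome 7, and the 75 tested genes within 2 Mb had a median of 0.36 against 0.56 for TRRAP. Its call was lost in 5 of 6 fits that left out 1 library, with the adjusted p (limma) reaching 0.156 without KO-labelled replicate 3, and was kept in each blocked fit. HCFC1 and BPTF, the most abundant members that did not pass, had log2 differences of 0.13 and 0.18, the latter with an adjusted p of 0.417 and of 0.0459 with the block (limma).

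None of the 15 SIN3 and histone deacetylase corepressor genes passed (limma), 1 had an unadjusted p under 0.05 (6.67%, against 23.8% of all genes), and with the block 1 was higher and 1 lower (6.67% each, against 19.7% and 20.0%). Their median was -0.13. RBBP4, a histone-binding subunit with near-identical pseudogene copies, had means of 21779 ± 909 and 18068 ± 535 (SD, n = 3 per group), a log2 difference of -0.27 and an adjusted p of 0.193, and of 0.00796 with the block (limma). HDAC2 had a log2 difference of -0.08 and an adjusted p of 0.82 (limma). SIN3A, the scaffold that MXD proteins bind, named after its values were seen, had a log2 difference of 0.29 with adjusted p-values of 0.336 and, with the block, 0.0188 (limma).

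Among 12 genes of the MGA-containing Polycomb complex PRC1.6, 1 fell (8.33%, against 4.96% of all genes) and 11 did not pass. With the block 3 were higher and 3 lower, near the 19.7% and 20.0% of all genes. PCGF6, the subunit that sets this complex apart from other Polycomb complexes, fell 1.45-fold from 1673 ± 34.2 to 1156 ± 102 (SD, n = 3 per group; adjusted p 0.0464, limma). Its counts were 1649, 1712 and 1657 for WT and 1092, 1274 and 1103 for KO, so the groups lay well apart. The 46 tested genes within 2 Mb on chromosome 10 had a median of 0.00. The call was lost in each of the 6 fits that left out 1 library, where the adjusted p (limma) ran from 0.0529 to 0.194, and held with the block at 0.00264. CBX3, on chromosome 7, had a log2 difference of 0.26 with an adjusted p of 0.642 and of 0.0135 with the block (limma). The list median was -0.08, and 0.02 with libraries scaled to equal sums.

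Of 17 genes for MYC protein turnover none passed (limma), and 1 had an unadjusted p under 0.05 (5.88%, against 23.8% of all genes). With the block 1 was higher (5.88%, against 19.7%) and 4 lower (23.5%, against 20.0%). The median was -0.15. SET, an inhibitor of the phosphatase PP2A, had means of 74932 ± 14590 and 64838 ± 14700.0 (SD, n = 3 per group), with an adjusted p of 0.6498 and of 0.0219 with the block (limma). The ubiquitin ligase gene HUWE1 had a log2 difference of -0.15 and an adjusted p of 0.557 (limma). FBXW7, the ligase subunit that marks phosphorylated MYC for destruction, and SKP2 were named after their values were seen. FBXW7 had counts of 2865, 1930 and 1642 for WT and 1510, 1569 and 1631 for KO, with a log2 difference of -0.41 and an adjusted p of 0.313 (limma). SKP2 lies on chromosome 5 and had a log2 difference of -0.82, with adjusted p-values of 0.0787 and, with the block, 1.38e-04 (limma).

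In the list for MYC transcription and mRNA 1 of 15 genes fell (6.67%, against 4.96% of all genes) and 14 did not pass. An unadjusted p under 0.05 (limma) was found for 4 of the 15, where 23.8% of all genes had one. With the block 2 were higher (13.3%, against 19.7%) and 6 lower, where 20.0% of all genes were lower. With the block and equal sums 5 were higher and 4 lower, where 4193 and 2379 of all 16658 genes were. ZFP36L2, which encodes a protein that binds AU-rich mRNA and speeds its decay, fell 1.44-fold from 4021 ± 429 to 2787 ± 164 (SD, n = 3 per group; adjusted p 0.04902, limma). The call was lost in each of the 6 fits without 1 library, where the adjusted p (limma) ran from 0.0644 to 0.194, and held with the block at 0.0043. IGF2BP1, which protects MYC mRNA, had means of 33330 ± 4436 and 28254 ± 5662, with adjusted p-values of 0.515 and, with the block, 0.0181 (limma). HNRNPK had a log2 difference of -0.08 (adjusted p 0.857, limma). The list median was -0.06, and 0.04 with libraries scaled to equal sums.

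None of the 44 textbook MYC-activated genes passed (limma), where 5.37% of all genes rose and 4.96% fell. An unadjusted p under 0.05 (limma) was found for 4 (9.09%, against 23.8% of all genes). The list median log2 difference was -0.18, with 37 below 0 (84.1%, against 51.6% of all genes). With libraries scaled to equal sums it was -0.08, with 31 below 0, where 6970 of all 16658 genes were. With the block 19 were lower (43.2%) and 3 higher, where 20.0% of all genes were lower and 19.7% higher. The count lower was 12 with the block and equal sums, where 2379 of all 16658 genes were lower. It was 34, 11 and 9 with number 1, 2 or 3 left out of the blocked fit. Of all genes, 4122, 2219 and 2216 were lower in those fits. Without the block, 12 were lower and 1 higher when both replicate 1 libraries were left out. Of all 16658 genes, 2292 were then lower and 2439 higher. Also without the block, 3 were lower without WT replicate 1, where 904 of all genes were, and none in the other fits without 1 library. NPM1, the nucleophosmin gene, had counts of 89707, 160084 and 136369 for WT and 44832, 78780 and 66989 for KO, which did not overlap. Its log2 difference was -1.02 with adjusted p-values of 0.0808 and, with the block, 3.41e-05 (limma). It lies on chromosome 5, where the 17 tested genes within 2 Mb had a median of -0.63, and pseudogene copies make its value uncertain. NCL, the nucleolin gene, had a log2 difference of -0.17 and an adjusted p of 0.871 (limma). Without the 5 list members on chromosomes 5, 7 and 20, whose genes as a whole were shifted, the list median was -0.17. The E-box CACGTG was in the promoters of 22 of the 37 list genes found in the RefSeq table (59.5%), where 8.77% of all genes with a promoter there hold it. The list was picked as known MYC targets, so this share is a description and not evidence from these data.

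Of 11 tested genes that MYC is known to repress, 2 rose (18.2%, against 5.37% of all genes), none fell and 9 did not pass. With the block 5 were higher (45.5%, against 19.7%) and none lower, where 20.0% of all genes were lower. Without the block, none were higher after upper-quartile scaling or without the intensity trend, and 0 to 2 when 1 library was left out. With both replicate 1 libraries left out and no block, 6 were higher and none lower. Of all 16658 genes, 2439 were then higher and 2292 lower. The list median with all libraries was 0.19, with 8 above 0. CDKN1A, the gene of the cell cycle inhibitor p21, rose 4.23-fold, with counts of 262, 139.5 and 168 for WT and 1398, 415 and 812 for KO (adjusted p 0.0358, limma). GADD45A, a growth arrest and DNA damage gene, rose 1.59-fold from 2331 ± 156 to 3727 ± 465 (SD, n = 3 per group; adjusted p 0.0268, limma). GADD45A lies on chromosome 1, where the 12 tested genes within 2 Mb had a median of 0.52 against 0.67 for GADD45A. Both calls held with the block. Leaving out 1 library ended that of CDKN1A in 4 of 6 fits and that of GADD45A in 5 of 6, with the adjusted p (limma) reaching 0.136 without KO-labelled replicate 3 for CDKN1A and 0.125 without WT replicate 3 for GADD45A. TXNIP and CDKN1B, the most abundant members that did not pass, had log2 differences of -0.19 and 0.19, and TXNIP and ARRDC4 are also in the next list.

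Among 5 targets of MLX and MondoA none passed (limma), none had an unadjusted p under 0.05, where 23.8% of all genes did, and with the block 2 were higher and 2 lower, where 19.7% and 20.0% of all genes were. TXNIP, which restrains glucose uptake, had counts of 6262, 9754 and 11319 for WT and 4342, 10414 and 10390 for KO. Its relative ARRDC4, named after its values were seen, had 315, 520 and 740.2 for WT and 449.8, 1012 and 1211 for KO. It was the higher in each pair, with a log2 difference of 0.73 and adjusted p-values of 0.402 and, with the block, 0.00348 (limma). HK2, a hexokinase gene, had a log2 difference of -0.27 with adjusted p-values of 0.789 and, with the block, 0.0268 (limma). All 5 genes had their lowest value in replicate 1 of both genotypes, where 33.3% of all genes did.

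**Figure D5:**
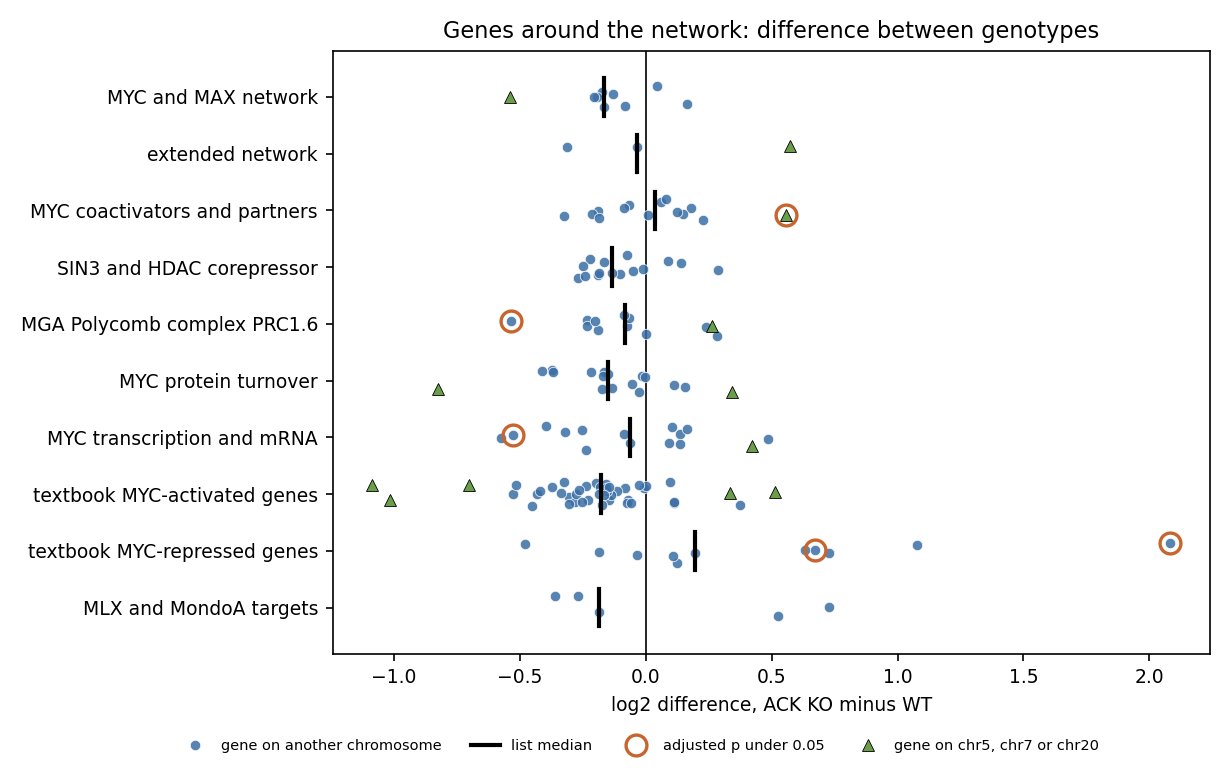
Log2 difference (KO-labelled minus WT, horizontal axis) of each tested gene in the network and the 9 lists around it, with list medians as black bars, genes on chromosomes 5, 7 and 20 as triangles and genes past an adjusted p of 0.05 ringed. The ringed genes are TRRAP, PCGF6, ZFP36L2, GADD45A and CDKN1A, and list medians run from -0.19 to 0.19.

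The genes whose log2 values followed MYC most closely over the 6 libraries, of 11353 others with a mean of 100 or more (genes named only after a clone or locus left out), were AARSD1, ANKRD52, NAA25, INTS10 and TUBB, with Pearson correlations from 0.996 to 0.999. For MXD3, the member with the smallest p, they were SUGP2, ATP8B3, CACNA1H, PRORSD1P and TTC32, from 0.991 to 0.997. None of the 10 passed the test between genotypes. The correlations are a description over 6 libraries, which include both replicate 1 libraries.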

How the data were processed

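Polyadenylated RNA was sequenced in 6 libraries, WT and ACK KO with 3 replicates each. The deposited values are a signal per gene that the authors name normalised counts. They are neither whole reads nor log values, and the normalisation method is stated in no source used here. Per the submitters' processing notes, the genome was GRCh38 and the tools were STAR 2.7.2b, Salmon 1.1.0, FastQC 0.11.7, SAMtools, R 3.6.1 and DESeq2 1.26.0, with no role or order. Those sources name neither an annotation release nor counting settings. Depth is unknown, so precision comes from the spread between libraries alone.

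Symbols came from a name table holding 19392 of 19498 identifiers, and positions and exon lengths from GENCODE 29, holding 19112. A gene entered the test if 3 or more libraries reached a value of 10, which left 16658. The test was limma 3.58.1 (R 4.3.3) on log2(value + 1), with an intensity trend and Benjamini-Hochberg adjustment at 0.05, and its code was tested on simulated data. Folds are back-transformed log2 differences and understate changes of low genes.

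Deviations from the group means correlated by 0.699, 0.521 and 0.342 between libraries numbered 1, 2 and 3, each above the limit of 0.1, so the number was also fitted as a block. The labels do not say what the number stands for. Unlike numbers 2 and 3 correlated by 0.257 and 0.281, which also pass that limit. The limit therefore cannot show that libraries 2 and 3 are matched by number.

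The members and lists were chosen with earlier results of these data known. The text names all members, the extended network, and from each other list up to 3 genes past the threshold and the 2 most abundant that were not, with other genes marked as chosen after their values were seen. Alternatives were pseudocounts of 0.5 and 5, other filters, the block, scaling to equal sums or upper quartiles, no trend, and leaving out libraries.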

Additional observations from a re-analysis of the deposited data

How the results depend on the processing

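Without the block, no member passed under any of the 14 alternatives, whose smallest adjusted p was 0.142 (limma). With the replicate block 1 member passed, MYC at -0.21 (adjusted p 0.0378, limma), and with the block and upper-quartile scaling 1 did, MYC at -0.19 (0.0485). With the block and equal sums none passed. Leaving out number 1, 2 or 3 from the blocked fit gave 4122, 2219 and 2216 of all 16658 genes lower. Among the members, 0 to 3 were lower. The 3 were MYC at -0.15, MAX at -0.20 and MLX at -0.20 without number 1 (adjusted p 0.0176, 0.0288 and 0.0235, limma), and without number 2 MXD3 passed at -0.71 (0.0413, limma). These blocked combinations were chosen after seeing the data.

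Over fits without 1 library or number, log2 differences ran from -0.35 to -0.02 for MYC, -0.21 to -0.06 for MAX, -0.30 to -0.07 for MLX, -0.84 to -0.18 for MXD3, -0.37 to 0.21 for MXD1, -0.23 to 0.076 for MXI1, -0.037 to 0.16 for MGA, -0.30 to -0.02 for MNT, 0.01 to 0.36 for MXD4, -1.07 to 0.29 for MYCL, -0.11 to 0.080 for MLXIP and -0.14 to 1.48 for MLXIPL. Without both replicate 1 libraries MXD1 was at 0.12 and MLXIP at 0.032 (also with the block). With equal sums, blocked or not, MXI1 was at 0.018 and MLXIP at 0.066. The cause of these reversals was not tested.

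Of all genes, 894 were higher and 827 lower. Without 1 library the counts ran from 343 to 1279 and from 349 to 904. With the block they were 3275 and 3337, with the block and equal sums 4193 and 2379, with the block and upper quartiles 3401 and 3179, with the block and number 1, 2 or 3 left out 3784, 2467 and 2366 higher and 4122, 2219 and 2216 lower, and without both replicate 1 libraries 2439 and 2292. Without the intensity trend the calls of TRRAP, PCGF6, ZFP36L2, GADD45A and CDKN1A were all lost, with adjusted p-values of 0.0809, 0.0745, 0.0957, 0.0559 and 0.0544 (limma), and with equal sums those of PCGF6 (0.0727) and ZFP36L2 (0.139). Upper-quartile scaling lost those of CDKN1A (0.0523), GADD45A (0.0535) and ZFP36L2 (0.080), no filter those of PCGF6 (0.0537) and ZFP36L2 (0.0566), and a mean of 100 or more that of ZFP36L2 (0.0503). Groups of 3 libraries and unknown depth limit every value.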
